A study of Rattus norvegicus with 12 samples.

Results

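Interleukin 6 type cytokine signalling was followed here through 7 genes: the ligand Il6, the receptor chains Il6r, Il6st, Lifr and Osmr, the transcription factor Stat3 and the feedback inhibitor Socs3. They were chosen by symbol, and their probes were found by the gene name in the array files, with Il6r listed there under its older name Il6ra. They are 7 of the 35533 genes and unnamed transcripts on the array and have 8 of its 41012 probes, 2 of them for Stat3 and 1 for each of the other genes. All 8 probes were among the 30978 kept for testing, a probe being kept where every array of some group showed it well above background (brighter than the scanner software's threshold over local background). Il6 passed through female vehicle alone, Lifr through both female groups, and the other members in all 4 groups.

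RNA was measured on 12 one-colour Agilent arrays of primary hepatocytes, the parenchymal cells of the liver, from Sprague-Dawley rats aged 11 weeks. The cells were isolated by collagenase digestion, cultured first with and then without serum, and exposed for 6 h to dexamethasone, a synthetic agonist of the glucocorticoid receptor, at 100 nM (written "nm" in the labels) or to 0.01% ethanol as vehicle. The 4 groups of 3 arrays were male vehicle, male dexamethasone, female vehicle and female dexamethasone, and the comparisons ask how the hormone changes these genes in each sex and whether the sexes differ. No group carried a genetic change. Sex was taken from the sample titles, since a separate gender label reads male for all 12 samples. The labels do not state whether the replicates were separate animals or cultures, so the p-values measure only the spread among these 12 samples, and that spread may be technical.

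Cytokines of this family signal through a shared receptor chain, gp130, which Il6st encodes. Interleukin 6 first binds its own receptor chain, encoded by Il6r, and the complex then recruits gp130, whereas Lifr and Osmr encode the partner chains with which gp130 forms the receptors for leukemia inhibitory factor and oncostatin M. Receptor-bound Janus kinases phosphorylate STAT3, which enters the nucleus and induces its targets, among them Socs3, whose product blocks gp130 and the kinases. In hepatocytes this route drives the acute phase response, the change in secreted plasma proteins during inflammation, and glucocorticoids are known both to restrain the production of interleukin 6 and to act with it on acute phase genes.

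The probes are 60 bases long and their sequences, as the files give them, are shown for the members whose levels changed with treatment or differed between the sexes and whose probe lies in coding sequence. Those of Il6 and of the second Stat3 probe span 1285 and 351 bases of the genome and so cross an intron.

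Il6: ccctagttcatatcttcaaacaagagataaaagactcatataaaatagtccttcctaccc

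Il6st: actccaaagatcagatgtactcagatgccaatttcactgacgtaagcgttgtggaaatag

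Lifr: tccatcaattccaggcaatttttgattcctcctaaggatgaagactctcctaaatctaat

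Stat3, second probe: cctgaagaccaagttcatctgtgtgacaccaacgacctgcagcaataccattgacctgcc

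On rat genome build rn3, the build of the files, all 4 receptor genes of the set lay on chromosome 2: the Il6r probe at 182028429 to 182028488, that of Il6st at 43761506 to 43761565, that of Lifr at 56405287 to 56405346 and that of Osmr at 56009432 to 56010176. Osmr and Lifr are neighbours, with 0 protein-coding genes and 1 gene of another kind between them in the RefSeq table (assembly GRCr8). The Stat3 probes (89835515 to 89835574 and 89838189 to 89838539) and the Socs3 probe (107973207 to 107973266) lay on chromosome 10 and the Il6 probe (457279 to 458563) on chromosome 4. No annotation of rn3 was used here, so the exon is not given.

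The RefSeq promoter table was searched for 6 short motifs on both strands, in the 250 bases before each listed start, and only the Il6 window lay at the outermost start of its gene. That window, from GRCr8 at chr4:5894576-5894825 on the minus strand, is shown in the direction of transcription because Il6 was the member called lower with dexamethasone. Capitals mark, in order, a cAMP response element (TGACGTCA), a C/EBP site (TTGNGCAA) and an NF-kB site (GGNNTTTCC), which do not overlap one another.

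Il6 promoter: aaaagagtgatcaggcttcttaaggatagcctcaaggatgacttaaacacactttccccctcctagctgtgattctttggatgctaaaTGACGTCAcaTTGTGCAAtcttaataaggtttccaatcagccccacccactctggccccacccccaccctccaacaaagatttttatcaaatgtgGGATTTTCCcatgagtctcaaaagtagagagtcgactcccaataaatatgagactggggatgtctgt

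The NF-kB match lay at positions -67 to -59 from the start, the C/EBP match at -152 to -145 and the cAMP response element at -162 to -155. Of the 33469 promoters in the table, 5.19% held the NF-kB letters, 2.29% the C/EBP letters and 1.59% the cAMP response element. The STAT letters TTCNNNGAA, present in 7.67% of promoters, were in none of the 7 members' windows. Those of a glucocorticoid receptor core, ACANNNTGT (5.81% of promoters), were found once, for Il6st, and those of AP-1, TGANTCA (6.34%), once, for Osmr. Both of these windows, and those of the other 4 genes apart from Il6, lay 154 to 11602 bases inside the gene's outermost start. A match is a description of letters, and a missing match says only that the letters are not in that window.

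The arrays were not equal. On male vehicle replicates 1 and 2, 46.0% and 46.8% of the probes were well above background, on replicate 3 55.7% and on male dexamethasone replicate 1 66.5%, against 72.4% to 80.4% on the other 8 arrays. Those 4 dimmer arrays formed slide 1, and the calls in males are given below also without male vehicle replicates 1 and 2. That fit leaves replicate 3 as the only male vehicle array, so its adjusted p-values do not show that a call holds. The remaining male dexamethasone arrays shared slide 2 with female vehicle replicates 1 and 2, and slide 3 held female vehicle replicate 3 with the 3 female dexamethasone arrays. The 10 hepatocyte markers were above background on all 12 arrays, and so were 12 of 13 measured Kupffer cell (liver macrophage) markers. All levels below are log2 processed signals relative to the 75th percentile of the same array, which allows a probe to be compared between arrays but not with another probe. Where groups are said below not to overlap, this is a description, since the share of all probes that separate so was not counted.

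**Figure D1:**
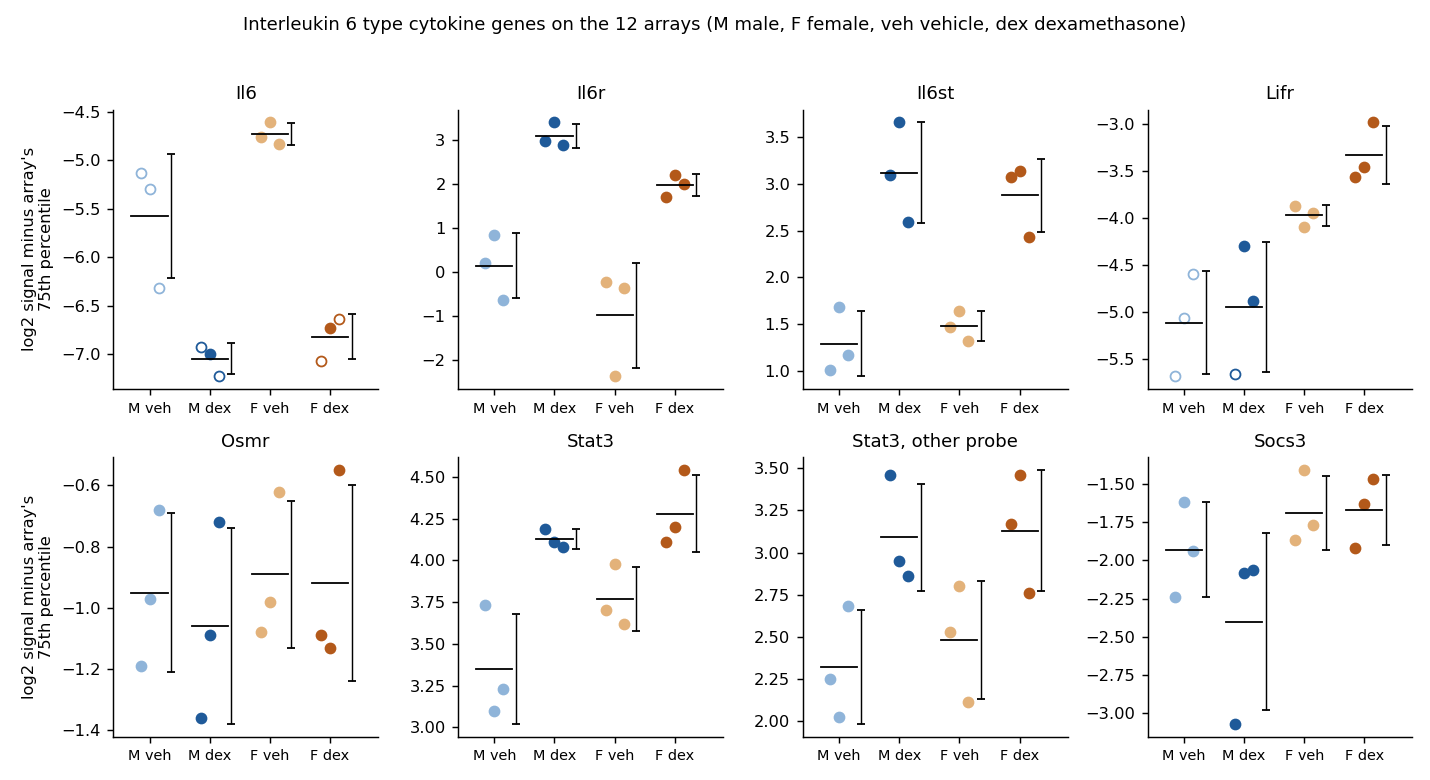
Level of each member on the 12 arrays, as log2 signal minus the array's 75th percentile, by group (M male, F female, veh vehicle, dex dexamethasone). Each point is 1 array, open where the probe was not well above background, horizontal lines are group means and bars beside them are ± 1 SD (n = 3). Il6r and Il6st were higher on all 3 dexamethasone arrays than on any vehicle array of the same sex. Il6 was lower in females, and in males, with no vehicle array above background, no fall was measured.

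With dexamethasone, 3 of the 7 genes rose in males (Il6r, Il6st and Stat3) and 2 in females (Il6r and Il6st). The fit also called 1 gene lower in each sex, Il6, a probe kept through female vehicle alone and above background on no male vehicle array, so that no fall was measured in males. Across all probes tested, limma called 5.45% higher and 4.74% lower in males, and 2.72% higher and 1.07% lower in females, at an adjusted p (Benjamini-Hochberg over all probes) under 0.05. The share of higher probes among the male calls, 53.5%, was 35.4% with scaling to the array median, 67.2% with quantile normalization and 24.0% with normexp, and the median over all probes in males was then -0.16, 0.05 and -0.24. That more probes were called in males than in females depends on the fit. With only the 2 groups compared, limma called 214 higher and 121 lower in males, and 1847 higher and 1223 lower in females. The median difference of the 7 genes was 0.17 in males, a value that comes from Lifr, which was not above background in male vehicle, and 0.52 in females, against -0.05 and -0.04 over all probes. In bulk RNA, fewer cells of a type and less RNA per cell cannot be told apart.

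**Figure D2:**
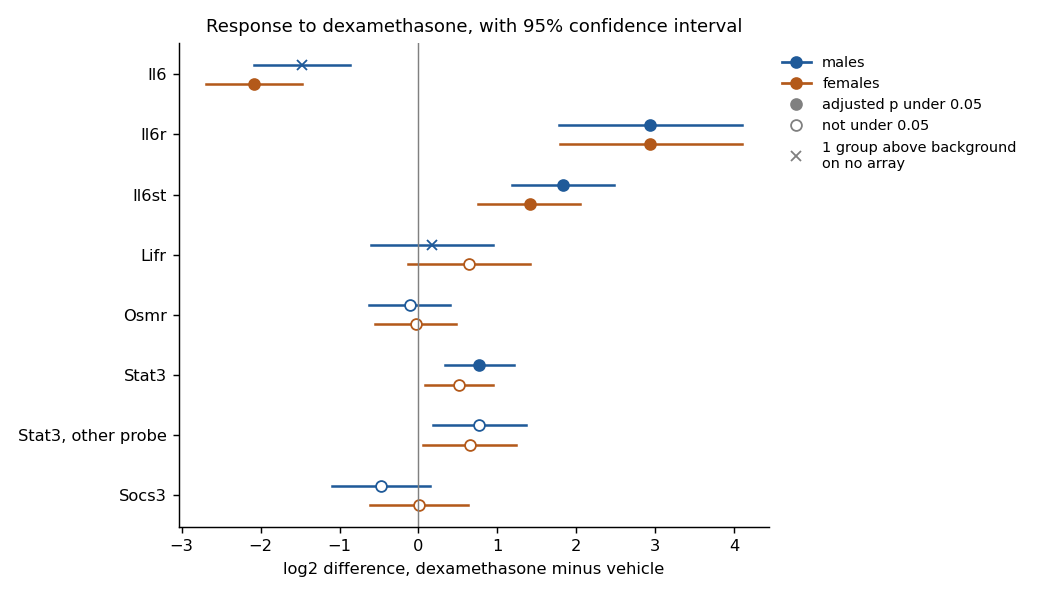
Log2 difference, dexamethasone minus vehicle, for each member in males and females, with the 95% confidence interval of the fit. Filled points have an adjusted p under 0.05, and crosses mark fitted values where 1 group was above background on no array (Il6 and Lifr in males), which measure no difference. The points for Il6r lie at 2.94 in both sexes, Il6st lies at 1.83 and 1.41, and Il6 in females lies at -2.08.

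The ligand gene Il6 encodes the cytokine itself. In female vehicle its level was -4.76, -4.61 and -4.83 on replicates 1 to 3, and in female dexamethasone it was -7.07, -6.73 and -6.64. The female groups did not overlap, and the probe, which is spotted 10 times, was above background on all 3 vehicle arrays but on only 1 of 3 after dexamethasone. The fitted difference in females was -2.08 ± 0.27 (SE) log2 units (adjusted p = 0.0027, limma). It is given without a fold, since most of the treated arrays were not above background, and since the probe was kept only through female vehicle, the group where it was high, the call is a description.

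In males the same probe read -5.13, -5.30 and -6.32 in vehicle and -6.93, -7.00 and -7.23 in dexamethasone. Here no vehicle array and 1 of 3 dexamethasone arrays were above background, so that the call of the fit (adjusted p = 0.0095, and 0.08 without male vehicle replicates 1 and 2) measures no fall. The difference in females was smaller, -0.50 (adjusted p = 0.14), when the background was corrected by normexp in place of the scanner software's subtraction.

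Kupffer cells are a known source of interleukin 6 in liver. Of 13 measured Kupffer markers, 0 passed the test with dexamethasone in either sex (2 in males and 1 in females, all higher, with the replicate numbers as a block), and their summed level ran from 5.73 to 6.71 in female vehicle and from 5.98 to 7.01 in female dexamethasone. In males it ran from 5.57 to 6.59 and from 5.78 to 6.81. Stellate cell markers summed to 3.02 to 3.79 in female vehicle and to 2.33 to 2.76 in female dexamethasone, where 1 of 10 fell (Pdgfrb, -1.14, adjusted p = 0.046). With the replicate numbers as a block 2 of 10 fell there. In males the stellate markers summed to 2.15 to 2.80 in vehicle and to 1.43 to 2.56 in dexamethasone. There too 1 of 10 was called lower, and 2 with the replicate numbers as a block. None of the stellate markers was below background on all 3 arrays of either female group. The part of Kupffer, stellate or other cells in the Il6 result was not tested.

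Among the receptor chains, Il6r, the chain that binds interleukin 6 itself, changed most on the log2 scale of its own probe. Its level was 0.21, 0.83 and -0.64 in male vehicle against 2.96, 3.39 and 2.88 in male dexamethasone. In female vehicle it was -0.23, -2.37 and -0.36, and in female dexamethasone 1.69, 2.19 and 1.99. Within each sex every treated array lay above every vehicle array, and female vehicle replicate 2 lay apart from its group at the low end.

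The rise was 2.94 ± 0.52 log2 units in males, 7.68-fold (adjusted p = 0.0081), and 2.94 ± 0.52 in females, 7.70-fold (adjusted p = 0.014). Their difference was 0.00 (95% confidence interval -1.63 to 1.64), an interval that includes sizeable differences in either direction. Within slide 1 the male difference was 2.82 and within slide 3 the female difference 2.32, but 1 of the groups compared has a single array there. Leaving out female vehicle replicate 2 gave 2.25 in females. Leaving out male vehicle replicates 1 and 2 gave 3.72 in males, measured against replicate 3 alone, the lowest array of that group. The call in females was lost without female dexamethasone replicate 2 or 3 (adjusted p = 0.065 and 0.055).

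Ordered by mean level, Il6r was highest in male dexamethasone (3.08 ± 0.27 SD, n = 3), then female dexamethasone (1.96 ± 0.25), male vehicle (0.14 ± 0.74) and female vehicle (-0.99 ± 1.20). The male group means lay above the female ones by 1.12 log2 units under either treatment. The adjusted p-values (limma) were 0.18 in vehicle and 0.29 in dexamethasone, so these neighbours in the order did not pass the test. Female dexamethasone was not tested against male vehicle. The vehicle groups overlapped, and with each array left out the vehicle difference, female minus male, ran from -1.51 to -0.43. The 3 male dexamethasone arrays were all above the 3 female ones, which lay on another slide.

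Il6st, which encodes the shared chain gp130, stood at 1.01, 1.68 and 1.17 in male vehicle and at 3.10, 3.66 and 2.59 in male dexamethasone. Female vehicle read 1.47, 1.64 and 1.32 and female dexamethasone 3.08, 3.14 and 2.43. The treated arrays of both sexes were all above the vehicle arrays of both sexes. The rise was 1.83 ± 0.29 log2 units in males, 3.55-fold (adjusted p = 0.005), and 1.41 ± 0.29 in females, 2.65-fold (adjusted p = 0.027).

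The sexes' Il6st responses differed by -0.42 (interval -1.34 to 0.49, adjusted p = 0.79), and their levels by 0.19 in vehicle (adjusted p = 0.71) and -0.23 in dexamethasone (adjusted p = 0.73). The female rise missed the threshold without female vehicle replicate 1 or 3 or female dexamethasone replicate 1 or 2, with adjusted p-values from 0.095 to 0.12 and a rise of at least 1.28. Without male vehicle replicates 1 and 2 the male rise was 1.94, measured against replicate 3 alone.

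Lifr, which encodes the receptor chain for leukemia inhibitory factor, was dim in males. It read -5.68, -5.06 and -4.59 in male vehicle, where no array was above background, and -5.66, -4.29 and -4.88 in male dexamethasone, where 2 of 3 were. Female vehicle gave -3.87, -4.09 and -3.94 and female dexamethasone -3.56, -3.45 and -2.98, all above background. The female groups did not overlap, but their difference of 0.64 ± 0.35 did not pass the test (adjusted p = 0.42). In males, with a vehicle group below background, no difference was measured (adjusted p = 0.80).

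Osmr encodes the chain that pairs with gp130 for oncostatin M and is the chromosomal neighbour of Lifr. It stood at -1.19, -0.97 and -0.68 in male vehicle, -1.36, -1.09 and -0.72 in male dexamethasone, -1.08, -0.98 and -0.62 in female vehicle and -1.09, -1.13 and -0.55 in female dexamethasone. The 4 groups overlapped. The difference with dexamethasone was -0.11 in males, with a 95% confidence interval from -0.62 to 0.40, and -0.03 in females, from -0.55 to 0.48.

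Stat3, the transcription factor that relays the signal to the nucleus, is measured by a bright probe spotted 10 times and by a second one spotted once. The bright probe read 3.73, 3.10 and 3.23 in male vehicle and 4.19, 4.11 and 4.08 in male dexamethasone, then 3.70, 3.98 and 3.62 in female vehicle and 4.11, 4.20 and 4.54 in female dexamethasone. Vehicle and dexamethasone arrays did not overlap in either sex. The rise was 0.77 ± 0.20 log2 units in males, 1.71-fold (adjusted p = 0.033), whereas the difference of 0.52 ± 0.20 in females missed the threshold (adjusted p = 0.20, and 0.017 with array weights). Without male vehicle replicates 1 and 2 the male rise was 0.90, measured against replicate 3 alone.

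The second Stat3 probe gave differences of 0.77 ± 0.27 in males (adjusted p = 0.091) and 0.65 ± 0.27 in females (adjusted p = 0.24), so neither passed. The test of the difference between the sexes' responses gave -0.26 for the bright probe (interval -0.87 to 0.36, adjusted p = 0.81). The 10 spots of the bright probe varied more within an array on slide 1, with SDs of 0.31 to 0.43 in male vehicle and 0.21 on male dexamethasone replicate 1, than on the other 8 arrays, with SDs of 0.06 to 0.09. The male call was lost without any 1 of male vehicle replicates 2 and 3, the 3 male dexamethasone arrays, female vehicle replicate 1 or female dexamethasone replicate 2, with adjusted p-values of 0.053 to 0.083.

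Socs3, the feedback inhibitor induced by STAT3, stood at -2.24, -1.62 and -1.94 in male vehicle and -3.07, -2.08 and -2.06 in male dexamethasone. Female vehicle read -1.87, -1.41 and -1.77 and female dexamethasone -1.92, -1.63 and -1.47. Treated and vehicle arrays overlapped in both sexes. The difference was -0.47 ± 0.28 in males (adjusted p = 0.32) and 0.01 ± 0.28 in females (adjusted p = 0.99, interval -0.61 to 0.63). Male dexamethasone replicate 1 was the lowest array, and within slide 1, which holds it, the male difference was -1.13.

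With the slide as a block in the model, 0 of the 7 genes passed the test in either sex. The fitted values of Il6, Il6r, Il6st and Stat3 kept their sign. Il6r was then 2.82 ± 0.77 in males (adjusted p = 0.10) and 2.32 ± 0.77 in females (adjusted p = 0.23), Il6st 1.81 ± 0.45 (adjusted p = 0.084) and 1.56 ± 0.45 (adjusted p = 0.16), and Il6 in females -1.98 ± 0.42 (adjusted p = 0.07).

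The responses of the sexes were compared gene by gene. None of the 7 differences between the female and the male response passed the test (0 at an adjusted and 0 at an unadjusted p under 0.05, limma). Over all probes 0.107% passed at the adjusted p, and 3647 of 30977 at the unadjusted p. The median of these 7 differences was 0.00.

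Between the sexes, Lifr was the member with a called difference. In dexamethasone it was 1.61 ± 0.35 log2 units higher in females (adjusted p = 0.036), and all 3 female arrays lay above all 3 male arrays. The probe was above background on 2 of those 3 male arrays and was kept only through the female groups, where it was high, so the call is a description. It was the 1 of 7 members called there, against 3.01% of all probes. In vehicle 0 of the 7 genes were called, against 13.9% of all probes. At an unadjusted p under 0.05 (limma), 9326 of 30977 probes passed, and among the 7 genes 2 did (Il6 and Lifr). For both of these probes all 3 female vehicle arrays and no male vehicle array were above background, so their fitted values measure no difference. The adjusted p in vehicle was 0.052 for Lifr (0.03 with the replicate numbers as a block) and 0.063 for Il6 (0.03 without male vehicle replicate 1).

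**Figure D3:**
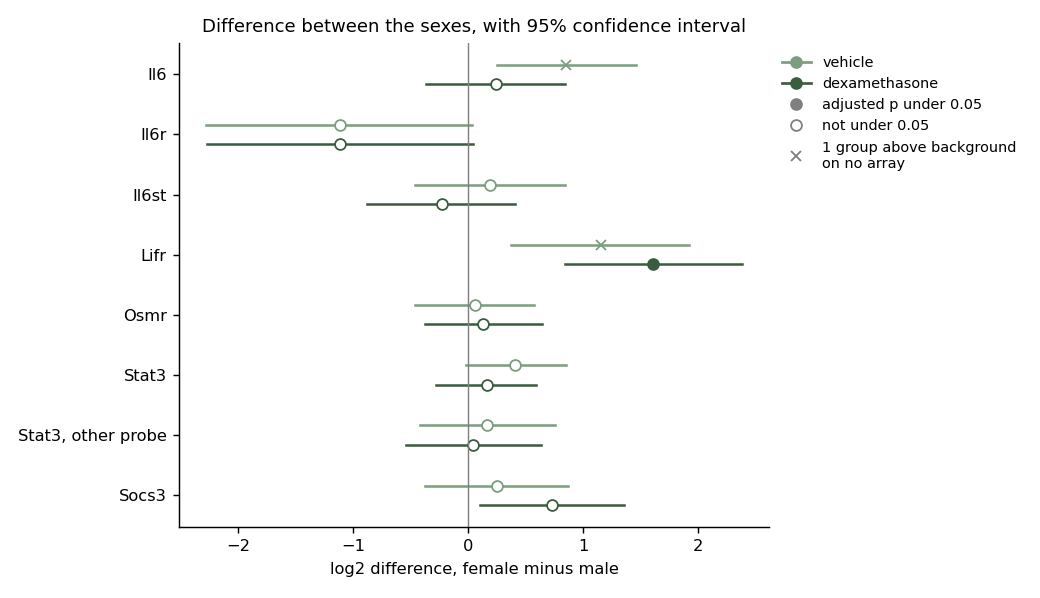
Log2 difference, female minus male, for each member in vehicle and in dexamethasone, with the 95% confidence interval of the fit. Crosses mark fitted values where 1 group was above background on no array (Il6 and Lifr in vehicle), which measure no difference. Lifr in dexamethasone, at 1.61, is the filled point, with an adjusted p under 0.05, and Il6r lies at -1.12 under both treatments with intervals that include 0.

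Socs3 in dexamethasone was 0.73 ± 0.28 higher in females (adjusted p = 0.20), with all female arrays above all male arrays. Stat3 differed between the sexes by 0.41 in vehicle (adjusted p = 0.18) and 0.16 in dexamethasone (adjusted p = 0.73), and Osmr by 0.06 and 0.13.

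No slide held both sexes under the same treatment, so sex and slide meet only through the model. With the slide as a block Lifr in dexamethasone was 1.22 ± 0.56 (adjusted p = 0.55), and the call was also lost when any 1 of 7 arrays was left out: male dexamethasone replicate 1 or 3, female vehicle replicate 1 or 3, or any female dexamethasone array (adjusted p = 0.053 to 0.14). Stellate cell and fibroblast markers moved with sex as well: 5 of 10 were called higher in female vehicle and 2 of 10 in female dexamethasone. With the replicate numbers as a block the counts were 7 and 2. Over all probes 13.9% were called in either direction in vehicle and 3.01% in dexamethasone. Their summed level was 2.33 to 2.76 in female and 1.43 to 2.56 in male dexamethasone, and 3.02 to 3.79 in female and 2.15 to 2.80 in male vehicle. Lrat, Pdgfrb, Rgs5 and Hgf were below background on all male vehicle arrays, and Hgf also on all male dexamethasone arrays. Of the Kupffer markers, 2 of 13 were higher in female vehicle (Csf1r by 1.87 and Msr1 by 1.66) and 0 in female dexamethasone, counts that were 5 and 4 with the replicate numbers as a block. The part of these cells in the Lifr and Il6 values was not tested.

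Across the 12 arrays, members that were above background on every array were set against one another as a description. The arrays differed in sex, treatment, slide and brightness, and r does not separate these from one another. Il6r and Il6st had a Pearson r of 0.83, Il6st and Stat3 0.69, Il6r and Stat3 0.53, and Osmr and Socs3 0.56, while Il6r and Socs3 had -0.45. Among 8448 named genes, those most like Il6r were Map3k6 (r = 0.949), Pfkfb1 (0.927) and Fkbp5 (0.925). Ctdspl (0.965), Slc41a3 (0.964) and C1qtnf1 (0.957) were most like Il6st. For Stat3 they were Tcp11l2 (0.937), Acsl4 (0.916) and Stk24 (0.908), for Socs3 Agpat1 (0.937), Rasal3 (0.923) and Fdxacb1 (0.92), and for Osmr Ikbkg (0.931), Hsd3b2 (0.877) and Rabif (0.853).

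The other genes of the pathway were followed through 6 lists. The counts below stand against 5.45% of all probes called higher and 4.74% lower in males, and 2.72% and 1.07% in females. With the replicate numbers as a block, 2331 of 30977 probes were called higher and 2573 lower in males, and 1222 and 774 in females. Of 7 measured cytokine genes that signal through gp130, 0 were called higher and 2 lower in males, and 0 higher and 1 lower in females. Clcf1, which encodes a cytokine that acts through the receptor for ciliary neurotrophic factor, fell in both sexes: from 1.43, 1.44 and 1.48 to 0.87, 0.66 and 0.94 in males (-0.63 ± 0.14, adjusted p = 0.021) and from 1.71, 1.59 and 1.83 to 1.00, 0.77 and 0.97 in females (-0.79 ± 0.14, adjusted p = 0.014). Without male vehicle replicates 1 and 2 the male adjusted p was 0.072. The other call in males, Il11 (adjusted p = 0.01, and 0.16 without male vehicle replicates 1 and 2), was below background on all 6 male arrays and so shows no fall.

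In females Il11 was above background on all 3 vehicle arrays and on none after dexamethasone, at least 1.41-fold lower. The difference missed the threshold (adjusted p = 0.091, limma, and 0.02 with the replicate numbers as a block). Its probe was kept only through female vehicle, the group where it was high, so these values are a description. The 2 other measured receptor genes, Il11ra1 and Il27ra, had no call in either sex. Il11ra1, the receptor chain for interleukin 11, differed by -0.34 in males (adjusted p = 0.23), and Il27ra by 0.35 in females (adjusted p = 0.63).

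None of the 8 measured Janus kinase and other STAT genes was called with dexamethasone in either sex, and their median differences of 0.03 and 0.04 lay near those of all probes. Stat5b, a factor used by growth hormone, had the smallest p in males (-0.39 ± 0.16, adjusted p = 0.14), and Jak1, a kinase bound to gp130, in females (-0.36 ± 0.24, adjusted p = 0.53).

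Of 15 inhibitors other than Socs3, 2 rose in males and 0 in females, and none fell (1 fell in males with the replicate numbers as a block). Socs1, a relative of Socs3 that binds Janus kinases, was below background on all 3 male vehicle arrays and above it on all 3 male dexamethasone arrays, at least 1.11-fold higher (adjusted p = 0.035, and 0.26 without male vehicle replicates 1 and 2). Ptpn1, a tyrosine phosphatase that acts on Janus kinases, read 1.12, 0.64 and 0.29 in male vehicle and 1.36, 1.49 and 1.36 in male dexamethasone (0.72 ± 0.19, adjusted p = 0.041). In females it read 2.02, 2.08 and 1.97 and then 1.37, 1.32 and 1.56 (-0.60 ± 0.19, adjusted p = 0.13). The difference between the female and the male response was -1.32 ± 0.27, which missed the threshold (adjusted p = 0.082).

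Among 20 measured acute phase genes, 2 rose and 1 fell in males (5.45% and 4.74% of all probes), and 1 rose and 0 fell in females (2.72% and 1.07%). With the replicate numbers as a block 2 rose and 2 fell in males, and 3 rose in females. Hamp, which encodes the iron hormone hepcidin, rose in both sexes: from 6.66, 6.33 and 6.01 to 7.76, 7.84 and 7.47 in males (1.36 ± 0.18, adjusted p = 0.0022) and from 6.15, 6.12 and 5.95 to 7.74, 7.65 and 7.50 in females (1.56 ± 0.18, adjusted p = 0.0015). It was called with the slide as a block too, with adjusted p-values of 0.045 and 0.04. Fgb, the fibrinogen beta chain, fell by 0.72 ± 0.16 in males (adjusted p = 0.022, and 0.086 without male vehicle replicates 1 and 2) and differed by -0.08 in females.

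A2m encodes alpha-2-macroglobulin, the major acute phase protein of the rat. It read 2.32, 2.46 and -2.48 in male vehicle and 6.80, 7.72 and 4.04 in male dexamethasone, with replicate 3 the lowest in both groups. In females it read 4.96, 5.14 and 4.87 in vehicle and 7.52, 7.63 and 7.73 in dexamethasone. All treated arrays were above the vehicle arrays of the same sex, with a rise of 5.42 ± 1.20 in males (adjusted p = 0.02) and a difference of 2.64 ± 1.20 in females (adjusted p = 0.30, and 0.013 with the replicate numbers as a block). The SE is pooled over the 4 groups. The SDs in vehicle and dexamethasone were 2.81 and 1.91 in males but 0.14 and 0.11 in females.

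Of 10 measured genes that STAT3 is known to induce, 3 were called higher and 1 lower in males. In females 1 was called higher and 0 lower. With the replicate numbers as a block 4 were called higher and 2 lower in males, and 1 and 1 in females. Bcl2l1, an inhibitor of cell death, rose by 1.01 ± 0.15 in males (adjusted p = 0.0033) and 0.81 ± 0.15 in females (adjusted p = 0.017). Cebpd, a transcription factor of the acute phase, rose by 1.03 ± 0.26 in males (adjusted p = 0.03) and differed by 0.88 ± 0.26 in females (adjusted p = 0.091). Irf1, a factor shared with the interferon response, fell by 1.54 ± 0.25 in males (adjusted p = 0.0049), with a difference of -0.88 ± 0.25 in females (adjusted p = 0.077). Fos, the third call upwards in males (adjusted p = 0.015, limma), was above background on no male vehicle array, so no rise was measured.

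The fit without male vehicle replicates 1 and 2 rests on replicate 3 as the only male vehicle array, so it does not show whether a male call holds. For A2m that array, at -2.48, was the lowest of its group. With any 1 array left out, Hamp in both sexes and Irf1 and Bcl2l1 in males kept an adjusted p of at most 0.022. The highest adjusted p reached in this way was 0.055 for Fos, 0.069 for Fgb, 0.074 for A2m, 0.089 for Cebpd, 0.11 for Socs1 and 0.12 for Ptpn1 in males, 0.076 and 0.075 for Clcf1 in males and females and 0.082 for Bcl2l1 in females. With the slide as a block, Hamp was the one gene named from these lists that passed the test.

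**Figure D4:**
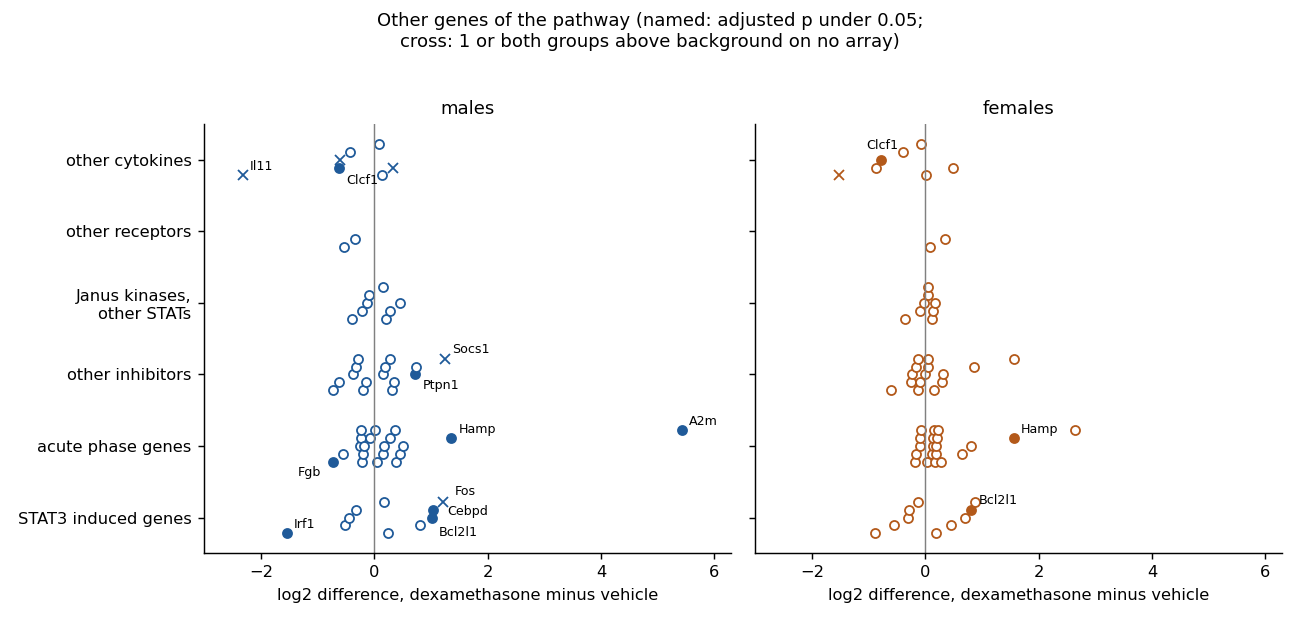
Log2 difference, dexamethasone minus vehicle, of the other measured genes of the pathway in males and females, grouped by role; each point is 1 gene, spread vertically only for legibility, and filled points have an adjusted p under 0.05. Crosses mark fitted values where 1 or both groups were above background on no array. Hamp, Clcf1 and Bcl2l1 are filled in both sexes, and A2m lies farthest right, at 5.42 in males and 2.64 in females.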

How the data were processed

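Per the file headers, Agilent Feature Extraction 9.5.3.1 (9.5 in the submitters' processing notes) produced the deposited spot intensity values, with probe positions on rn3; the background had been subtracted within each array and nothing scaled between arrays. The authors' deposited value table holds the same linear, uncentred intensity values (540216 of 540216 equal), with column medians of 44.7 to 112. Of 43379 spots that are not controls, those marked as outliers were left out, and a probe's value is the mean log2 intensity of its spots. The 75th percentile subtracted was 554.6 to 1335 before log2. Names came from the RefSeq table (GRCr8) for 19848 probes and from the files for 21164, and 252 names were refused because the chromosomes differed.

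A single model of the 4 group means, on 12 arrays, was fitted with limma 3.58.1 in R 4.3.3 (lmFit, contrasts.fit, eBayes), probe by probe, with Benjamini-Hochberg adjustment over all kept probes, a threshold of 0.05 and two-sided tests. It was also run on simulated data with independent noise and no slide effect, pairing or background floor. That run shows nothing about these features. A gene with several probes was represented by the brightest. Fold bounds ("at least") set the bright group's mean against, per dim array, the probe's own signal or, if higher, the lowest signal well above background. Errors are SEs of the fit or SDs of 3 arrays, and precision is limited by the number of arrays. This model has no pairing, and the replicate number as a block is an alternative to it. Same-numbered vehicle and dexamethasone arrays of a sex did deviate together, so the numbers pair the arrays and the blocked value is given where it changes a call (correlations of 0.27, 0.46 and 0.27 in males and 0.43, 0.27 and 0.35 in females).

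The 7 genes, the pathway and marker lists and the tests were chosen with earlier results of these data known. Named from each pathway list were, per sex, up to 2 rises and 2 falls past the threshold, or the gene with the smallest p where none passed. For each member above background on all 12 arrays, the 3 genes with the highest Pearson r were named. Not measured were Il27, Il31ra, Tyk2, Mt1a, Mt2A and Bcl3, for which no probe name matched, and Cntfr, which was too dim. Alternatives covered the scaling, background correction, filter, slide, replicate block, arrays in the fit, array weights, empirical Bayes options, outlier spots, 1 probe per gene and each array left out. Leaving out both dimmest male vehicle arrays was added after seeing the data.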

Additional observations from a re-analysis of the deposited data

How the results depend on the processing

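Il6r, Il6st, Il6 and Stat3 kept the sign of their fitted differences with dexamethasone under every alternative run. For Il6 in males that sign measures no fall. The number of the 7 genes called was 4 in males, and 0 with the slide as a block, 1 with only the 2 groups compared and 2 with array weights. It was 3 with the array median (Stat3 lost), quantile normalization, the filter on all 12 arrays or without both dimmest male vehicle arrays (Il6 lost in each), and Stat3 was called in 5 of the 12 fits with an array left out. In females it was 3, and 0 with the slide as a block, 2 with normexp or the filter on all 12 arrays (Il6 lost in both), 4 with array weights (Stat3 added, adjusted p = 0.017) and 1 to 3 with each array left out. For females against males in vehicle it was 0, and 1 with quantile normalization (Il6), 1 with normexp (Stat3), 2 with no filter on dim probes and 2 with the slide as a random block (Il6 and Lifr), 1 with the replicate block (Lifr), 1 without both dimmest male vehicle arrays (Il6) and 0 to 2 with each array left out. In dexamethasone it was 1, and 0 with quantile normalization, normexp, no filter, the filter on all 12 arrays (which removes Lifr) or the slide as a block, and 0 to 1 with each array left out. With only the 2 groups compared the 1 call was Il6r (-1.12, adjusted p = 0.041) and not Lifr (adjusted p = 0.062). The replicate block changed no other call of a member. Over all probes it moved the calls for different responses from 22 higher and 11 lower to 1 and 0, and the slide as a block those in males to 254 higher and 345 lower. With normexp 14.1% of the calls between the sexes in vehicle were higher in females, and with quantile normalization 63.6%, against 48.8%.

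Differences that missed the threshold changed sign as follows. Normexp gave -0.32 for Lifr and 0.05 for Osmr in males, 0.15 for Osmr in females, 0.03 for Il6 and -0.25 for Il6r in the difference of responses, -0.33 for Il6, -0.16 for Lifr and 0.00 for Osmr between the sexes in vehicle, and -0.30 for Il6 in dexamethasone. The slide as a block gave -0.55 for Lifr in males (also -0.55 within slide 1), -0.50 for Il6r in the difference of responses, -0.53 for Osmr and -0.71 for Socs3 between the sexes in vehicle and -0.43 for Osmr in dexamethasone, and as a random block -0.06 for Socs3 in females. Array weights gave 0.00 for Osmr in males, -0.26 for Il6r and -0.01 for Osmr in the difference of responses, -0.03 for Osmr between the sexes in either treatment and 0.01 for Il6st in dexamethasone. Quantile normalization gave 0.00 for Socs3 in females and -0.03 for Il6r and -0.39 for Lifr in the difference of responses, and the array median -0.04 for Socs3 in females. Without both dimmest male vehicle arrays Lifr in males was -0.35, Il6r in the difference of responses -0.77 and Osmr between the sexes in vehicle -0.21. With each array left out, Lifr in males ran from -0.16 to 0.53, Osmr from -0.28 to 0.04 in males and -0.22 to 0.10 in females, and Socs3 in females from -0.09 to 0.15. The difference of responses ran from -0.69 to 0.39 for Il6r and -0.11 to 0.24 for Osmr. Between the sexes Osmr ran from -0.08 to 0.19 in vehicle and -0.05 to 0.30 in dexamethasone, and Il6st in dexamethasone from -0.50 to 0.04. The cause of these changes was not tested. Il6 and Lifr in males lay below or near background, which limits what their values show. Between the sexes in vehicle their fitted values and signs measure no difference.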
